A study of Arabidopsis thaliana with 16 samples.

Results

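The steadily expressed genes of the *Arabidopsis* somatic embryo culture are described here, as candidates for reference genes. They are the probe sets whose signal was at least 1000 on every one of 16 ATH1 arrays and whose highest signal was at most 2 times the lowest. Of 22746 probe sets that are not controls, 457 (2.01%) met both conditions, and 1517 (6.67%) met the first. The signal is the deposited intensity on a linear scale, brought by the authors to a 2% trimmed mean of 500 on each array. The members were chosen by these signals, so that their levels and ranges are a description and carry no test.

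A reference gene is a transcript against which others are measured, for example by quantitative PCR. Its usefulness rests on a level that varies little between the tissues compared. The genes most often used encode the cytoskeleton, glycolytic enzymes, ubiquitin and translation factors, and their levels can differ between tissues. Ribosomal proteins, the proteasome and the secretory pathway serve every living cell.

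Transcripts of wild-type Columbia-0 (WT) and of *vtc2-5*, an ascorbate-deficient line that carries a T-DNA insertion in a gene of ascorbate synthesis, were measured at 4 stages with 2 arrays each. The stages were bent-cotyledon zygotic embryos (ZE), explants cultured with the synthetic auxin 2,4-D for 7 d (D7I) or 14 d (D14I), and SE, the mature somatic embryos harvested after 14 d on medium without hormone. The mutant is represented by 1 insertion line, and *VTC2* itself is not analysed here. The labels name the arrays of a group as biological replicates 1 and 2, but do not say from which cultures each came. The biological and technical parts of the spread between them cannot be told apart. Tissues are mixtures, in which fewer cells of a type and less RNA per cell cannot be told apart, and scaling to a common mean makes every signal relative to the total of its array.

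Known markers followed the stage labels in most cases. *GH3.1*, an auxin-conjugating enzyme gene induced by auxin, had mean signals of 14.6 in WT zygotic embryos, 1207 and 709.7 at the induction times and 8.53 in mature somatic embryos. *PSAN*, which encodes a photosystem I subunit, went from 9921 to 33.5, 8.19 and 1211 over the same stages. *M17*, a late embryogenesis gene, was at 0.881 in WT zygotic embryos and 3487 at D7I. The steady genes were therefore picked from a series in which other transcripts moved over a wide range. The control probe sets show how far transcripts were intact: the ratio of 3′ to 5′ signal ran from 1.23 to 2.32 for GAPDH and from 1.73 to 5.05 for actin, and replicate 1 of *vtc2-5* mature somatic embryos was highest in both.

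The mean signal of the members ran from 1269.9 to 18471, with a median of 2913, and the ratio of highest to lowest signal from 1.265 to 1.999, with a median of 1.78. The SD of log2 signal over the 16 arrays had a median of 0.235 among members, 0.357 among all probe sets with a lowest signal of at least 1000, and 0.762 among all probe sets. Few members lay far inside the limit: 38 had a ratio of at most 1.5 and 204 of at most 1.75. The share of probe sets that were steady grew with the level, from 6.36% of the 2090 with a mean signal of 1000 to 2000, through 15.1% of 1235 up to 5000 and 24.0% of 362 up to 10000, to 37.9% of the 132 above 10000. The floor on the lowest signal lets in few probe sets of the first of these classes. Within the members, mean level and SD of log2 signal had a rank correlation of -0.02 over 457 probe sets that share the same arrays.

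**Figure D1:**
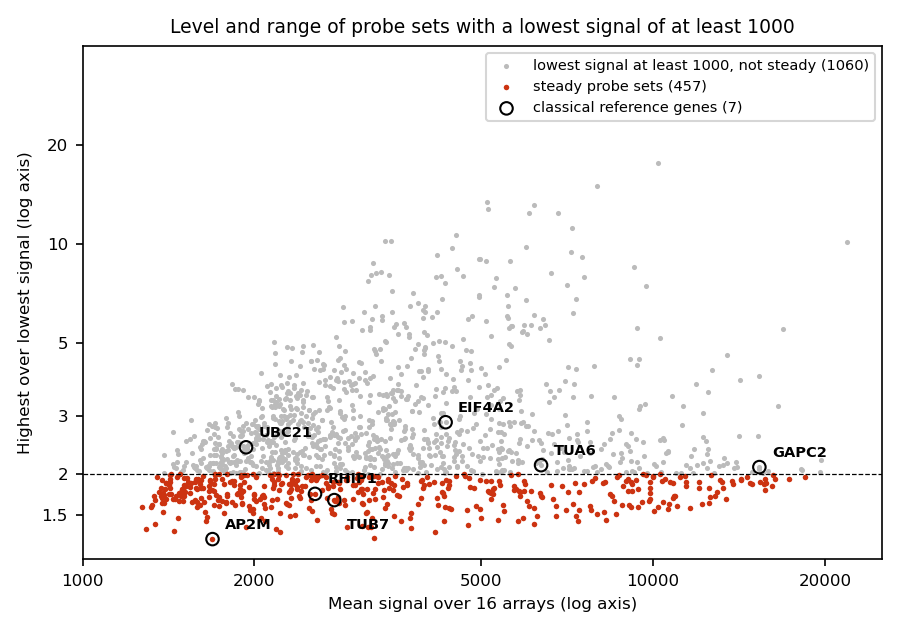
Mean signal over 16 arrays (x axis, log) against the ratio of highest to lowest signal (y axis, log) for the 1517 probe sets with a lowest signal of at least 1000. Red points are the 457 steady probe sets below the line at 2, grey points the other 1060, and rings mark 7 classical reference genes, of which AP2M, TUB7 and RHIP1 lie below the line.

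Even these genes were not flat. The SD between the 8 group means exceeded the SD between replicates in 384 of 457 members, with medians of 0.212 and 0.140 on the log2 scale. For probe sets at 1000 or more that were not steady, the medians were 0.410 and 0.181. By stage mean, 167 members were lowest in zygotic embryos and 132 were highest at D7I. The *vtc2-5* minus WT difference had a median of -0.03, -0.08 and -0.02 on the log2 scale at ZE, D7I and D14I, and of 0.08 at SE, where 278 of 457 members were higher in *vtc2-5* and the largest difference was 0.97. Differences between the genotypes were spread most widely in mature somatic embryos, from -0.46 to 0.65 between the 5th and 95th percentiles.

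The annotation pairs 194 members with 1 gene each, 18 with several and 245 with none. All 194 are different genes, and none of them is encoded in the plastid or the mitochondrion. Such genes are rare here, with 69 of 13436 paired probe sets. Among the 478 paired ones at 1000 or more that were not steady there were 0 as well. Probe sets that can bind several transcripts (suffix _s_at) made up 6.35% of members, 4.11% of all probe sets and 5.57% of those at 1000 or more that were not steady. The median length of the paired genes was 2023 bp among members and 2117 bp over all probe sets. It was 1960 bp among those at 1000 or more that were not steady.

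The steadiest member paired with a gene was *AT5G46630*, or *AP2M*, which encodes the medium subunit of the AP-2 adaptor that gathers cargo into clathrin-coated vesicles at the plasma membrane. In WT its signals were 1735 and 1593 in zygotic embryos, 1468 and 1717 at D7I, 1627 and 1671 at D14I, and 1857.5 and 1839 once somatic embryos were mature. The mutant arrays gave 1714 and 1529.6 in zygotic embryos, then 1678 and 1596, then 1837 and 1766, and finally 1716 and 1687.5. Its lowest and highest arrays were both WT, and the signals of the mutant lay between them. The SD was 109.3 around a mean of 1689.5 (n = 16), a coefficient of variation of 6.47%. A single probe set that is not paired with a gene had a smaller SD of log2 signal, 0.094 beside 0.0945, at a mean signal of 3238.

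*GLY2* (*AT3G10850*) came next. It encodes a glyoxalase II, which with glyoxalase I removes methylglyoxal, a toxic by-product of glycolysis. Its WT signals were 2456 and 2195 in zygotic embryos, 2562 and 2408 at D7I, 2151 and 2288 at D14I, and 1931 and 2327 in the mature embryos. The *vtc2-5* signals were 2163 and 2348.5, then 2092 and 2121.5, then 2221 and 2353, and 1939 and 1992 in mature somatic embryos. The lowest signals of *GLY2* were therefore those of mature somatic embryos, with replicate 1 of WT and both replicates of *vtc2-5* under 2000, while replicate 2 of WT lay above the median of 2208. *PRA1.B1*, one of the prenylated Rab acceptors that act in vesicle traffic, had a lower level, from 1162 to 1629 with a median of 1356.

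Of the 12 steadiest members paired with a gene, 5, *AP2M* among them, were on a list of 61 genes of entry into the endoplasmic reticulum (ER) and of vesicle coats, which was written after these values were seen. That list holds 10 of the 194 paired members (5.15%). *AT4G12590*, a subunit of the ER membrane complex that inserts membrane proteins, ran from 2474 to 3405. *AT3G15710*, of the signal peptidase family that trims proteins entering the ER, ran from 1321 to 1947, and *AT5G05010*, the delta subunit of the COPI coat, from 2648 to 3655. *AT2G01720*, a ribophorin I subunit of the oligosaccharyltransferase that glycosylates them, ran from 2823 to 4199. *AT5G54750*, which is not on the list, is a component of the TRAPP complex that tethers vesicles and ran from 2153 to 3359. In the 5 genes given after *PRA1.B1* the highest signal was 1.38 to 1.56 times the lowest. The other 4 of the 12 were *AT2G23940* (mean signal 1447), *AT5G51880* (1325), *AT5G49540* (3208) and *AT3G51010* (3093). None of the 12 had a mean signal above 3514.

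**Figure D2:**
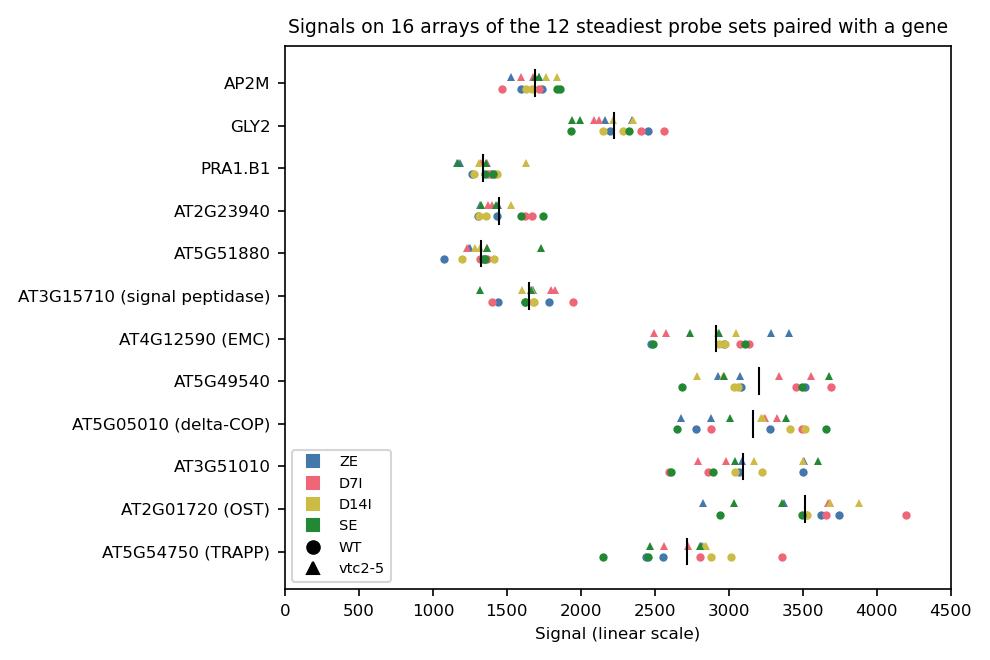
Signals on each of 16 arrays (x axis, linear) of the 12 members with the smallest SD of log2 signal among those paired with 1 gene. Circles are WT, triangles *vtc2-5*, colours the stages and black bars the means. The row of AP2M is the narrowest, from 1468 to 1857.5.

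A second measure gave a similar order. The SD of the log2 ratio of a member to each of the other members does not depend on how arrays are scaled, and its mean ran from 0.249 to 0.479, with a median of 0.319. It ranked the 457 members much as the SD of log2 signal did, with a rank correlation of 0.903. *AP2M* stood at place 3 of 457 by this measure, *AT3G04840* at place 4, *PRA1.B1* at place 5 and *GLY2* at place 8. *AT3G04840* encodes ribosomal protein S3a. It was at place 28 by the SD of log2 signal, with signals from 7643 to 12102.

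Parts of 5 cellular machines were counted with lists of their genes, written after the members' values were seen. The shares are therefore a description. Many listed genes are not paired with a probe set: 132 of 232 were measured for the ribosome and 9 of 53 for the proteasome. For the H+-ATPase 9 of 28 were, for complexes I and II 26 of 42, and for ER entry and coats 38 of 61. The cytosolic ribosome had 132 measured probe sets, of which 101 had a lowest signal of at least 1000 and 45 were steady, or 34.1% of those measured beside 2.01% of all probe sets. Among probe sets at 1000 or more, 44.6% of ribosomal ones were steady beside 30.1% of all. The proteasome had 6 steady members of 9 measured, the vacuolar H+-ATPase 3 of 9, complexes I and II of the mitochondrial respiratory chain 8 of 27, and ER entry and vesicle coats 10 of 40. The members of the last list had a median SD of log2 signal of 0.162, beside 0.228 to 0.254 in the members of the other lists. Over all measured probe sets of each list the order was not the same, with 0.315 for ER entry and coats, 0.286 for the proteasome, 0.321 for the ribosome, 0.332 for complexes I and II and 0.337 for the H+-ATPase. Together the lists hold 72 of the 457 members.

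Ribosomal proteins form the large and small subunits that translate mRNA, and plants encode each of them by several paralogous genes. The steady ones had high mean signals, from 1522.5 to 17282 and a median of 9887. The 8 members paired with a gene that had the highest mean signal were all ribosomal: *AT5G20290* (S8, 17282), *AT1G52300* (L37, 15719), *AT3G49910* (L26, 15363), *AT3G60245* (L37a, 14808), *AT5G15200* (S9, 13737.5), *AT2G19730* (L28, 13283), *AT1G01100* (the stalk protein P1, 13190.2) and *AT5G35530* (S3, 12853). Signals of different probe sets are not on a common scale per transcript, so this order is one of signals only. The ratio of highest to lowest signal of these 8 lay between 1.71 and 1.93. By subunit, 22 of 70 measured large-subunit, 20 of 49 small-subunit and 3 of 13 stalk probe sets were steady. The steadiest were *AT5G02870* (L4, from 6805 to 10274), *AT3G04840*, *AT4G16720* (L15, from 8877 to 14938) and *AT3G28900* (L34, from 4967 to 7300.4).

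The ribosomal members differed between the genotypes in mature somatic embryos in the deposited signals, though 0 of 45 were called there or at any other stage, which the limit on range fixes. The signals of *AT5G20290* were 22799 and 19206 in WT zygotic embryos, 22975 and 15877 at D7I, 15492 and 13814 at D14I, and 11897 and 15127 at the last stage. In *vtc2-5* the same gene gave 19480 and 19849, then 15503 and 16450.5, then 13894 and 13779, and 21197 and 19174 in mature somatic embryos. Its signals in mature somatic embryos did not overlap between the genotypes, and the lowest of all was that of WT replicate 1. Of the 45 ribosomal members, 44 were higher in *vtc2-5* than in WT mature somatic embryos, with a median log2 difference of 0.42 as deposited and of 0.60 after median centring, but of -0.01 after quantile normalization, with 21 of 45 higher. The median of all probe sets for the same difference was -0.15 as deposited, -0.09 after quantile normalization and 0.03 after median centring. In the other stages 6, 13 and 13 of the 45 were higher in *vtc2-5*. Replicate 1 of *vtc2-5* mature somatic embryos held the highest signal of 19 of these genes and WT replicate 1 the lowest of 14. The highest signal of any probe set was 14665 on that WT array and 25620.2 on the other, and 32349 and 28358.5 on the arrays of *vtc2-5* mature somatic embryos. The 3′ to 5′ ratios of GAPDH were 1.44 and 2.13 in WT and 2.32 and 1.74 in *vtc2-5*, and their part in the difference was not tested. In the deposited signals of mature somatic embryos, the difference was not particular to steady probe sets. Of the 56 ribosomal probe sets that met the floor but were not steady, 52 were higher in *vtc2-5*, with a median of 0.59. The 8 members from complexes I and II went the same way, with 7 of 8 higher in *vtc2-5* and a median of 0.32. Of the 12 from these complexes that met the floor but were not steady, 10 were higher, with a median of 0.55. The 10 members from ER entry and coats had a median of -0.06. On that list, 3 of the 8 that met the floor but were not steady were higher, with a median of -0.43.

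Paralogues of 1 ribosomal protein were often divided by the rule. Of 59 protein families measured, 22 held both steady and other probe sets, 10 held only steady ones and 27 held none. For L26, *AT3G49910* had group means from 11822 to 19390.5, while *AT5G67510* went in WT from 1990 in zygotic embryos to 5424 and 6797 at the induction times and 5264 at SE. For S9, *AT5G15200* had a ratio of highest to lowest signal of 1.902 and *AT5G39850* one of 4.065, with a mean of 1437 in WT zygotic embryos and 5458 at D7I. For the stalk protein P2, *AT2G27710* and *AT2G27720* were steady, and *AT3G44590* was at 2952 in WT zygotic embryos and 10191 in *vtc2-5* mature somatic embryos. In each of these 3 families the named paralogue that was not steady had the lower mean signal and was lowest in zygotic embryos of either genotype. The 3 were picked after their values were seen, and others of the 22 differed. In L34, *AT1G26880*, not steady, had a mean signal of 7571 beside 5904 for the steady *AT3G28900*. In S25, *AT4G39200*, not steady, had 8709 beside 2740 for the steady *AT2G21580* and was lowest in mature somatic embryos of either genotype. In all, 56 ribosomal probe sets at 1000 or more were not steady. Their D7I minus ZE difference was above 0 in 50 in WT and in 53 in *vtc2-5*. The share of all probe sets above 0 was not counted. The median was 0.46 and 0.66 on the log2 scale, beside 0.14 and 0.19 over all probe sets. A limma adjusted p under 0.05 and a 2-fold change were passed by 7 of the 56 in WT and 15 in *vtc2-5*, all upwards. These are smaller shares than the 27.7% and 30.1% of all probe sets called in either direction. Paralogues are similar in sequence, and binding of one transcript to the probes of another was not tested.

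**Figure D3:**
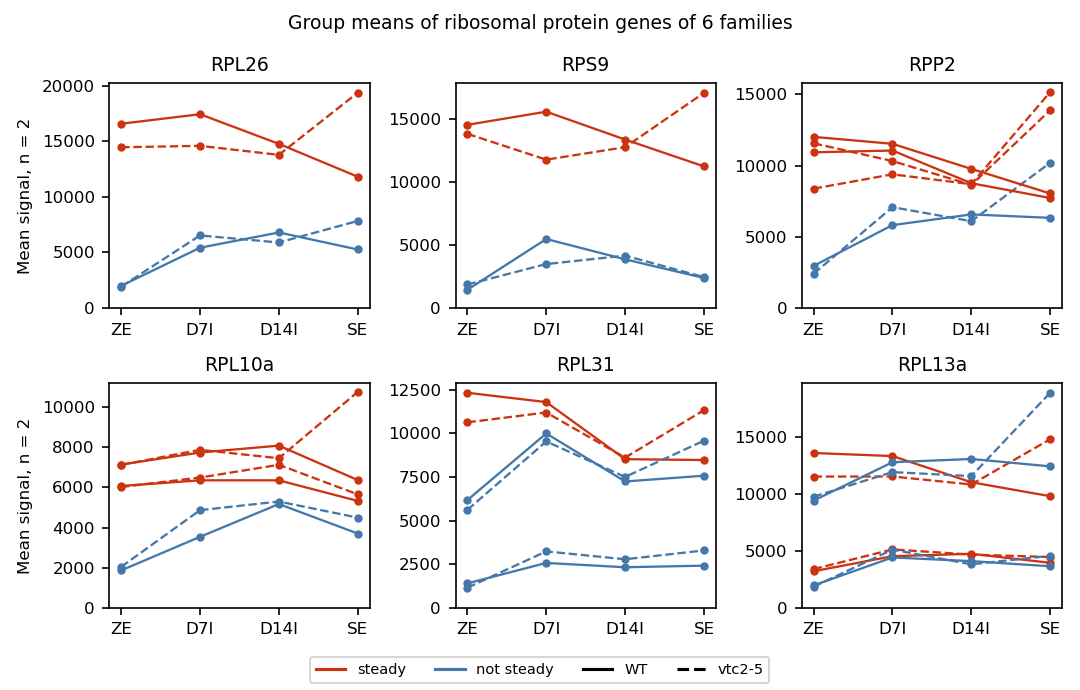
Group mean signals (y axis, linear, 2 arrays each) by stage (x axis) for the genes of 6 ribosomal protein families with a lowest signal of at least 1000. Red lines are steady genes and blue lines the others, solid for WT and dashed for *vtc2-5*. In L26, S9 and P2 the blue genes start near 1437 to 2952 in WT zygotic embryos and lie below the red ones.

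The proteasome degrades proteins marked with ubiquitin. Its steady members were the ATPase subunit *AT1G45000* (RPT4, mean signal 2869), *AT2G32730* (RPN2, 1792), *RPN12a* (3223), *AT4G24820* (RPN7, 3178) and *AT5G23540* (RPN11, the deubiquitinating subunit, 2669.5) of the regulatory particle, and *AT1G79210* (1731) of the core. *AT5G45620*, a further regulatory subunit, was at 1000 or more but had a ratio of 2.501. The vacuolar H+-ATPase acidifies the vacuole, and its steady subunits were *AT3G58730* (subunit D, 1918), *AT4G32530* (1668.5) and *AT4G26710* (subunit e, 3093). *AT5G55290*, the paralogue of the last, ranged over 3.601-fold, from 1895 to 6825.

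Complex I takes electrons from NADH and complex II from succinate. The steady subunits with the smallest SD were *AT5G52840* (mean 4383), *AT3G03070* (4203) and *AT3G03100* (3080.3) of complex I, and *SDH2-1*, the iron-sulphur subunit of complex II, whose signals lay between 1576 and 2544. A second probe set of *SDH2-1* was not steady, with a mean signal of 4.21, and 2 of the 194 paired members had such a second probe set. *SDH1-1*, the flavoprotein subunit of the same complex, was not steady, with signals from 1673 to 5139. Among the ER and coat genes, the ER membrane complex had both of its measured genes among the members, *AT4G12590* and *AT5G11560* (mean signal 2521). By probe set, the COPI coat had 1 of 11 measured and the SEC61 channel 1 of 6. *AT1G29310* of SEC61 was the member with the lowest mean signal, 1269.9, and its paralogue *AT2G34250* ranged from 3778 to 10213.

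Genes in common use as references were examined as a separate list of 55, of which 18 are paired with a probe set here, 1 each. Their pairing was independent of the rule, though the list was written with the members known. Of the 18, 3 (16.7%) were steady, *AP2M*, *TUB7* and *RHIP1*, beside 2.01% of all probe sets. A lowest signal of at least 1000 was met by 7, of which 3 (42.9%) were steady beside 30.1% of all at that level, and 14 of the 18 had a highest signal over 2 times the lowest. The median ratio of the 18 was 2.81. *TUB7*, a beta-tubulin, ran from 2106 to 3500.5 with a median of 2810.1. *RHIP1* (*AT4G26410*), which encodes a protein that interacts with hexokinase and a regulator of G-protein signalling, had WT signals of 2189.5 and 2385 in zygotic embryos, 3048 and 2286 at D7I, 2355 and 2303 at D14I, and 2647 and 2968 at SE. In *vtc2-5* it gave 2062 and 1881 in zygotic embryos, then 2403 and 2172, then 3266 and 2643, and 3229 and 3047 at SE. In the mutant all 4 signals of the later stages lay above the 4 of the earlier ones, although the range stayed within 1.74-fold. *TUB6* met the range, at 1.965, but lay below 1000 on 3 arrays, at 839.6 in replicate 1 of WT zygotic embryos and at 855.1 and 919.0 at D7I in WT.

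*GAPC2*, a cytosolic glyceraldehyde 3-phosphate dehydrogenase of glycolysis, and *TUA6*, an alpha-tubulin, were near misses, with ratios of 2.09 and 2.12 at mean signals of 15354 and 6362. *GAPC2* ranged from 10453 to 21889, its lowest in replicate 1 of WT mature somatic embryos and its highest in replicate 1 of WT zygotic embryos. *UBC21*, a ubiquitin-conjugating enzyme gene also called *PEX4*, ran from 1385 to 3330.1, a ratio of 2.41, and the top value was again that of replicate 1 of *vtc2-5* mature somatic embryos, beside 2390.4 in replicate 2.

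**Figure D4:**
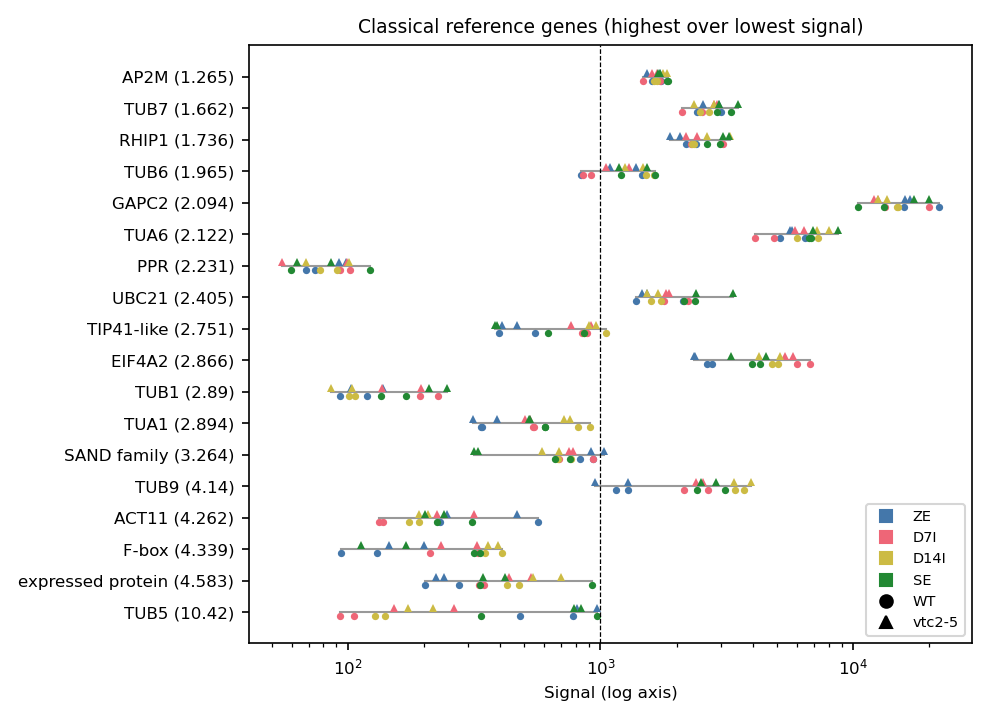
Signals on 16 arrays (x axis, log) of 18 classical reference genes, ordered by the ratio of highest to lowest signal, which stands in brackets. Circles are WT, triangles *vtc2-5*, colours the stages, grey lines the range and the dashed line a signal of 1000. AP2M spans 1.265-fold at the top and TUB5 10.42-fold at the bottom.

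Over the 10 comparisons of successive stages and of the genotypes, the 18 classical genes gave 15 calls in 180 tests, or 8.33%, beside 11.3% over all probe sets (limma, Benjamini-Hochberg adjusted p under 0.05 and at least 2-fold). From zygotic embryos to D7I, 4 of 18 were called in WT and 3 in *vtc2-5*, beside 27.7% and 30.1% of all probe sets. From D14I to mature somatic embryos, 1 was called in WT and 4 in *vtc2-5*, beside 14.7% and 22.5%. From D7I to D14I, 1 was called in WT and 0 in *vtc2-5*, beside 7.94% and 3.9%. By genotype, 2 were called, both in mature somatic embryos, beside 3.84% there, and 0 at the other stages, where 0.0352% in zygotic embryos, 2.7% at D7I and 0.022% at D14I of all probe sets were called. In all, 8 genes were called at least once and 10 in none of the 10 comparisons. In none of the 18 did a stage change differ between the genotypes past an adjusted p of 0.05.

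*TUB5*, a beta-tubulin, varied most. Its WT signals were 480.8 and 780.8 in zygotic embryos, 106.0 and 93.4 at D7I, 139.9 and 128.4 at D14I, and 972.0 and 335.4 at SE. It fell by 2.62 ± 0.456 (SE) on the log2 scale from zygotic embryos to D7I in WT (limma adjusted p = 0.00141) and by 2.14 in *vtc2-5* (adjusted p = 0.00408), and rose by 2.09 and 2.06 towards mature somatic embryos (adjusted p = 0.0103 and 0.00756). The WT rise was lost without either replicate of D14I (adjusted p = 0.0513 and 0.0611), and was 1.32 without replicate 1 and 2.86 without replicate 2 of WT mature somatic embryos. The D7I and D14I signals of both genotypes lay below all signals of the embryos. *EIF4A2*, an RNA helicase of translation initiation, went the other way: 2760 and 2641.5 in WT zygotic embryos and 6718 and 6012 at D7I, a rise of 1.24 ± 0.179 (SE) on the log2 scale in each genotype (limma adjusted p = 0.000468 in WT and 0.000388 in *vtc2-5*). After median centring the rise in *vtc2-5* was 0.99, short of 2-fold.

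*TIP41-like* (*AT4G34270*) and the SAND family gene *AT2G28390*, both widely used in plants, were low in *vtc2-5* mature somatic embryos. The signals of *TIP41-like* in *vtc2-5* were 903.9 and 960.2 at D14I and 380.9 and 388.5 in mature somatic embryos, a fall of 1.28 ± 0.219 (SE) on the log2 scale (limma adjusted p = 0.00219). In WT mature somatic embryos they were 861.5 and 622.5. *TIP41-like* was also low in zygotic embryos, at 398.3 and 549.6 in WT and 406.7 and 467.8 in *vtc2-5*. From there to D7I it rose by 0.886 in WT and 0.939 in *vtc2-5*, short of 2-fold (limma adjusted p = 0.00994 and 0.00662). The SAND family gene gave 316.7 and 328.5 in *vtc2-5* and 757.0 and 662.6 in WT mature somatic embryos, a fall of 1.13 ± 0.185 (SE) in the mutant against WT (limma adjusted p = 0.0162). This call was lost under 4 of 22 other settings, namely median centring and leaving out replicate 1 of WT or either replicate of *vtc2-5* mature somatic embryos, with adjusted p up to 0.0932. The F-box gene *AT5G15710* was called as well at that stage, at -1.23 (adjusted p = 0.043), a call lost under 13 of 22 other settings, with adjusted p up to 0.213. It also rose by 1.25 from zygotic embryos to D7I in WT (adjusted p = 0.00885) and fell by 1.44 from D14I to mature somatic embryos in *vtc2-5* (adjusted p = 0.0059), and its signals ran from 93.7 to 406.7. The first of these was lost without replicate 1 of WT zygotic embryos or replicate 2 of WT D7I, and the second without replicate 1 of *vtc2-5* mature somatic embryos. The remaining calls were *TUB9*, which rose by 1.15 from zygotic embryos to D7I in *vtc2-5*, *TUB1*, which fell by 1.01 from D7I to D14I in WT and rose by 1.27 in *vtc2-5* over the step to SE, and *ACT11*, an actin gene that fell by 1.42 from zygotic embryos to D7I in WT. The WT call of *TUB1* was lost under 7 of 22 settings, which were quantile normalization, median centring, the offset of 30 and leaving out either array of WT D7I or D14I. That of *TUB9* was lost after median centring and without replicate 2 of *vtc2-5* zygotic embryos. *ACT11* rested on signals of 232.5 and 564.1 against 138.3 and 132.4, and its call was lost without replicate 2 of WT zygotic embryos or either replicate of WT D7I, with a difference of -0.78 without the former and -2.06 without replicate 1 of WT zygotic embryos.

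The other classical genes were never called. The signals of *TUA1* ran from 313.1 to 906.1, those of the pentatricopeptide repeat gene *AT5G55840* from 54.8 to 122.3, and those of the expressed protein gene *AT4G33380* from 202.2 to 926.8, where the highest was replicate 1 of WT mature somatic embryos beside 334.7 in replicate 2.

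A list fixed in 1 genotype allows a test in the other. On the 8 WT arrays alone, 867 probe sets were steady, and on the 8 *vtc2-5* arrays alone 760. They shared 528 probe sets, 60.9% of the WT list and 69.5% of the *vtc2-5* list. Of these, 71 were not among the 457, as the combined range over both genotypes exceeded the limit. The WT list had a median ratio of highest to lowest signal of 1.67 in WT and of 1.84 in *vtc2-5*, where the largest was 4.47. For the 827 probe sets at 1000 or more in WT that were not steady there, the median ratio in *vtc2-5* was 2.63, and 20.9% of them were steady in *vtc2-5*.

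In *vtc2-5*, 36 of the 867 (4.15%) were called from zygotic embryos to D7I, beside 30.1% of all probe sets and 37.0% of the 827. From D7I to D14I the shares were 0.346%, 3.9% and 2.42%, and from D14I to mature somatic embryos 4.15%, 22.5% and 16.6%. The fit shares its spread between genotypes, and genes that were steady in WT had a small spread there. With no fold threshold, an adjusted p under 0.05 took in 224, 17 and 292 of the 867 at the 3 steps. Over the 3 steps together this was 20.5% of the tests of the list, beside 26.0% over all probe sets. The gap to all probe sets was thus much narrower without the fold threshold.

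The exceptions named here were picked after their values were seen. A range of up to 2 times was allowed in WT, so a call in *vtc2-5* is not by itself a difference between the genotypes. *SDH1-1* lay between 2424 and 4494 on the WT arrays. In *vtc2-5* it went from 2066 and 2251 in zygotic embryos to 5118 and 5139 at D7I, a rise of 1.25 ± 0.142 (SE) on the log2 scale (limma adjusted p = 8.72e-05), and was at 1673 and 2028 in mature somatic embryos. *AT5G26830* and *AT5G27470*, which encode threonyl- and seryl-tRNA synthetases that load amino acids for translation, both rose by 1.07 over the same step in *vtc2-5* (limma adjusted p = 0.00194 and 0.000773), from 2291 and 2246 to 4677 and 4823 for the first. *AT4G24830*, an argininosuccinate synthase of arginine synthesis, rose by 1.26 (adjusted p = 0.00158). Towards mature somatic embryos, *TPP2*, which encodes the protease tripeptidyl peptidase II, fell by 1.18 (limma adjusted p = 0.00254), from 5667 and 4775 to 2025 and 2615, and *AT3G18190*, a subunit of the CCT chaperonin that folds actin and tubulin, by 1.13 (adjusted p = 0.00152). The largest difference was that of *AT1G80530*, which fell by 1.97 ± 0.17 (SE), from 3965 and 3605 to 886.4 and 1054.6 (limma adjusted p = 5.39e-05), while its WT signals stayed between 1652 and 3171. After median centring the rises of *SDH1-1*, *AT5G26830* and *AT5G27470* stayed under 2-fold, as did that of *AT5G27470* without replicate 2 of *vtc2-5* zygotic embryos and the fall of *TPP2* without replicate 1 of *vtc2-5* mature somatic embryos. In each of these genes the *vtc2-5* signals of the stages compared did not overlap. Picking them among called genes, with 2 arrays per stage, makes this likely, so it adds no support.

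The members also serve as a measure of the arrays. The median deviation of the members gives each array a factor, which ran from 0.933 in replicate 1 of WT mature somatic embryos to 1.076 in replicate 1 of WT D7I, a span of 1.154-fold. The same factor from all probe sets at 1000 or more spanned 1.253-fold and from the 18 classical genes 1.505-fold, with 0.778 in replicate 1 of WT zygotic embryos. Scaling on the members would thus move no array by more than 7.6%, but they were chosen for even signals on these arrays. Replicate 1 of *vtc2-5* mature somatic embryos held the highest signal of 89 members and replicate 1 of WT D7I that of 79. The lowest signals were most often on replicate 2 of *vtc2-5* zygotic embryos, with 66 members, and on replicate 1 of WT mature somatic embryos, with 62. Without replicate 1 of *vtc2-5* mature somatic embryos the rule found 549 probe sets, 92 more, whereas leaving out any other array added 4 to 47.

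**Figure D5:**
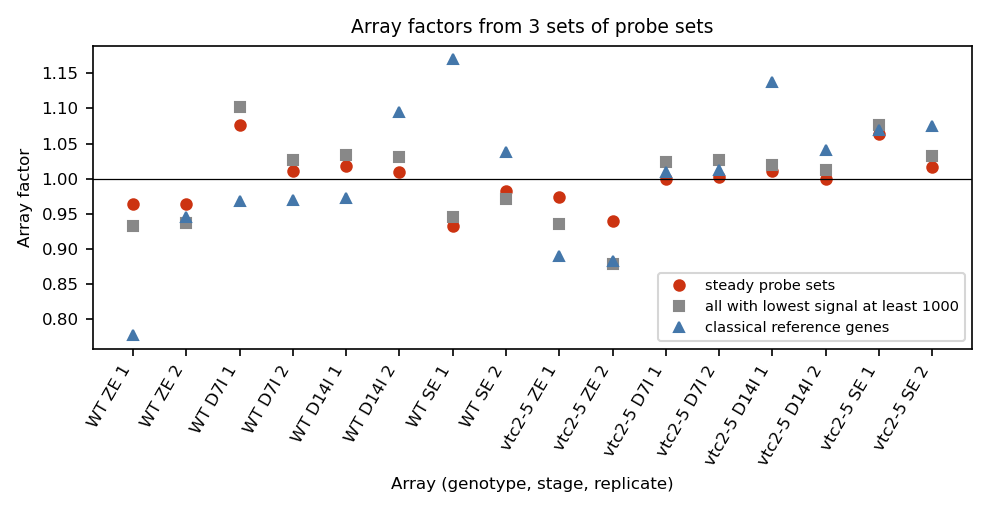
Array factors (y axis, linear ratio; 1 is the mean over arrays) for the 16 arrays (x axis) from the steady probe sets (red circles), all probe sets with a lowest signal of at least 1000 (grey squares) and 18 classical reference genes (blue triangles). The red circles span 0.933 to 1.076 and the blue triangles 0.778 to 1.17.

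At the edges of the rule, neighbours differed little. Just inside the floor were *AT4G35220* with a lowest signal of 1019.6, *VPS46.2* with 1025 and *AT3G27090* with 1028, and just outside *AT4G07390* with 995.5, *AT3G05000* with 994.4 and *AT5G09310* with 994.2. The ratio was 1.9992 in *AT3G62120*, 1.9981 in *AT1G77370* and 1.9972 in *AT3G62580*, and 2.0000 after rounding in *AT3G56310*, 2.0016 in *AT5G41685* and 2.0035 in *AT5G27850*.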

How the data were processed

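The deposited table gives 1 intensity, on a linear scale, for each probe set and array. The authors labelled 3 μg of total RNA for each array, and the values stand at a 2% trimmed mean of 500 on every array. RMA, named in the methods, gives log values of another scale. No scanner files were used, so background and summarization could not be set again. Of 22810 rows, 64 controls were set aside. The number of arrays limits the precision.

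The members and all gene lists were chosen with earlier results of these data known. The lists of cellular machines and of classical genes hold complete families by locus and were written after the members' values were seen. In R 4.3.3, limma 3.58.1 was fitted to log2 intensities without an offset, with a mean for each of 8 groups, over 10 contrasts. P values were adjusted over 22746 probe sets (Benjamini-Hochberg). Scripts were tested on simulated data.

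Named members, each paired with 1 gene, are the 12 with the smallest SD of log2 signal, the 8 with the highest mean, up to 4 per machine, the classical genes and the 3 nearest each threshold; others were named after their values were seen. Alternatives were other floors and ranges, quantile normalization, median centring, a filter and an offset at 30, the replicate number as a block, no fold threshold, and leaving out each array. Promoter motifs and sequences were not analysed here.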

Additional observations from a re-analysis of the deposited data

How the results depend on the processing

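The number of steady probe sets depends on the limits. With floors of 500 and 2000 it was 792 and 247, with ranges of 1.5 and 2.5 times 38 and 902, with quantile normalization 513 (390 of the 457 kept) and with median centring 350 (283 kept). For WT alone, floors of 500 and 2000 gave 1630 and 440 and a range of 1.5 times 192. For the probe sets shared by both genotypes, the floors gave 941 and 287 and the ranges 54 and 947. Leaving out 1 array gave 461 to 549 members, 902 to 1031 in WT and 533 to 614 shared.

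The classical genes gave 11 to 16 calls in 180 tests under other scalings, filters and offsets, beside 10.4% to 15.2% of tests over all probe sets. With no fold threshold they gave 27 in 180, beside 15.6%. The WT list gave 67 to 85 calls over the 3 *vtc2-5* steps, beside 75 as reported, 533 with no fold threshold, and 63 to 123 without 1 array. The 123 came without replicate 1 of WT zygotic embryos, where the list grew to 1031 probe sets. The spans of the array factor were 1.253 from all probe sets at 1000 or more, 1.505 from the classical genes, and 1.141 to 1.17 without 1 array. Among 37 named members the range stayed within 2 times in 37 after quantile normalization and in 24 after median centring. The *vtc2-5* minus WT median of ribosomal members in mature somatic embryos, 0.42, was -0.00738 after quantile normalization, 0.60 after median centring, 0.30 after scaling on all members and 0.41 to 0.59 without 1 of the 4 arrays, settings chosen after seeing the data. The cause was not tested.

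Replicate numbers did not pair arrays: over 28 pairs of groups the correlation of deviations ran from -0.137 to 0.165, with 3 above 0.1. With the replicate block, calls were 15 in the classical genes, beside 10.9% of tests over all probe sets. In the WT list they were 74, or 2.85%, beside 18.4%. With 2 arrays per group, a difference near 2-fold can be missed.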
